A study of Mus musculus with 2 samples.

Results

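The genes described are 10 transcripts of secondary and tertiary granule cargo in mouse neutrophils, Ltf, Camp, Ngp, Lcn2, Olfm4, Mmp8, Mmp9, Mmp25, Cd177 and Retnlg. They were chosen by name with earlier results of these data known, and all 10 were found among the 35522 features listed in both expression tables. The neutrophils were sorted from bone marrow of Balb/C mice (age 5 to 8 weeks) as CD11b-positive, Ly-6G-high and Ly-6C-low to negative cells, at a purity above 80%. They were kept in complete RPMI-1640 with 10 ng/ml GM-CSF, a myeloid growth factor that both groups received. One culture was given PBS and the other was given 20 ug/ml tumor exosomes (labelled ELV-treated), each for 3 days. The exosomes were taken from the medium of SDCSCs, the sphere-derived cancer stem cells that are expanded as spheroids from the mouse colon carcinoma line CT26. Each group held 1 library, no spread between replicates could be given, and no test between the treatments was possible. Whether cells of several animals were pooled is not stated in the sources used here.

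Neutrophils carry ready-made proteins in granules that form one after another while the cell matures in the bone marrow. Azurophil (primary) granules are filled first, secondary (specific) granules next and tertiary (gelatinase) granules last, and the mRNA of each cargo protein is made mainly at the stage at which its granule forms. C/EBP epsilon, a transcription factor of late granulocyte differentiation, is needed for secondary granule genes. Secondary granules hold lactoferrin (Ltf), cathelicidin (Camp), neutrophilic granule protein (Ngp), lipocalin 2 (Lcn2), olfactomedin 4 (Olfm4) and collagenase (Mmp8), and carry CD177 on their membrane. Tertiary granules hold gelatinase B (Mmp9) and the membrane-anchored proteinase leukolysin (Mmp25). Retnlg encodes a secreted protein of the resistin family that bone marrow neutrophils make in large amounts.

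Camp, Ngp and Ltf share one stretch of chromosome 9 (build GRCm38), with Camp at 109847377 to 109849456 on the minus strand, Ngp at 110419808 to 110423012 and Ltf at 111019292 to 111042766, both on the plus strand. Mmp8 lies elsewhere on chromosome 9, at 7558429 to 7568486. Retnlg is on chromosome 16 at 48872608 to 48874498, and Lcn2 on chromosome 2 at 32384637 to 32387739 on the minus strand. The 250 bases before the start of these 6 genes are shown. They belong to the 4 largest decreases, to the 1 increase described next and to Mmp8, although Olfm4 and Cd177 decreased more than Mmp8. Sequences are those of RefSeq (GRCm38.p6), printed 5′ to 3′ on the strand of the gene. Capitals mark the letters TTGCNNAA or, on the other strand, TTNNGCAA, a core of the C/EBP motif. The windows are chr9:109849457-109849706 for Camp, chr9:110419558-110419807 for Ngp, chr9:111019042-111019291 for Ltf, chr16:48872358-48872607 for Retnlg, chr9:7558179-7558428 for Mmp8 and chr2:32387740-32387989 for Lcn2.
Camp: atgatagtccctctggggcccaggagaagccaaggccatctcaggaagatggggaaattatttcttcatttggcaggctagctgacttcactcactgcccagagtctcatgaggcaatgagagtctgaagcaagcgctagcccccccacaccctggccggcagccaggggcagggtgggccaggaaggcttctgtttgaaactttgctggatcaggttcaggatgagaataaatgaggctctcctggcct
Ngp: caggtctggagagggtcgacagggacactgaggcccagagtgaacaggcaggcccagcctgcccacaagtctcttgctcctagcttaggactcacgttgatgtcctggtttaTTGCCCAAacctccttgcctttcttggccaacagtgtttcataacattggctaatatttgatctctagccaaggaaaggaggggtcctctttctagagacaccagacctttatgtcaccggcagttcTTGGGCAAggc
Ltf: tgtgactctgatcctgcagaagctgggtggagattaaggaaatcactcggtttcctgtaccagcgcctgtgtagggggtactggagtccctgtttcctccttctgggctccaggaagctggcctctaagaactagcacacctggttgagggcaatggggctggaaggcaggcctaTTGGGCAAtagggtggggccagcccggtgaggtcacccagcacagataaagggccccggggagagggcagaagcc
Retnlg: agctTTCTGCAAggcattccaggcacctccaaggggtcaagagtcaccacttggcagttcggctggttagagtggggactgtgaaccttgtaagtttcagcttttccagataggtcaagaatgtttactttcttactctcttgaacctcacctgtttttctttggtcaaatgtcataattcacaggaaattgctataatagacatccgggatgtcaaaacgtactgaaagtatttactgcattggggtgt
Mmp8: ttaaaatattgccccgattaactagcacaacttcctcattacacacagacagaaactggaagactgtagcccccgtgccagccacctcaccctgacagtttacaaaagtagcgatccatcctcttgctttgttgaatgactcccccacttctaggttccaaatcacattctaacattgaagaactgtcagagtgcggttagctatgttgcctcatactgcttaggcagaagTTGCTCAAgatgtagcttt
Lcn2: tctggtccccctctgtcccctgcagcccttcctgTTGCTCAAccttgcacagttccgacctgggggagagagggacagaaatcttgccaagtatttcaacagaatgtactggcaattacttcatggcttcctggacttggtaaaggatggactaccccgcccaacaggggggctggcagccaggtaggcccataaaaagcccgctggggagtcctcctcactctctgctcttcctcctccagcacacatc

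Of the 10 members, 9 (all but Mmp9) had a window in the RefSeq table, and 5 of these held the C/EBP core, against 9.56% of all 32851 windows of this length. Ngp held it at 2 places, 138 to 131 and 11 to 4 bases before its start, Ltf at 75 to 68 and Mmp8 at 19 to 12 bases before theirs. Retnlg (246 to 239 bases) and Lcn2 (216 to 209 bases) held it farther away, so it stood both before genes that were lower and before the one that was higher. Camp did not hold these letters in its window, and neither did Olfm4, Cd177 and Mmp25, whose windows are not shown. The letters AGGAAGT of the PU.1 motif were found before Mmp8 and Olfm4 and in 7.69% of all windows. TGTGGT of the RUNX motif was found before none of the 9 and in 14.0% of all windows. Each motif was searched on both strands, and a match is a description of letters only.

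Levels were compared as RPKM, a read number divided by the length of the exons and by the mapped reads of the library, so that levels of different genes can be set side by side. A ratio is the exosome-treated over the PBS-treated RPKM. A gene was called higher or lower at a ratio of at least 2 or at most 0.5, if neither of its RPKM values was below 0.25, the limits used in the study. Of the 10 granule cargo transcripts, 8 were lower in SDCSC exosome-treated neutrophils, 1 (Lcn2) was higher and 1 (Mmp9) stayed within 2-fold. Among all 9698 features kept, 5.62% were called lower and 31.5% higher. The median log2 ratio of the members was -2.19, and that of all features kept was 0.53. At least 4-fold decreases were seen in 7 of 10 members and in 1.14% of all features, and at least 8-fold decreases in 4 of 10 and in 0.278%. As the members were chosen with earlier results known, these shares describe the list and are not a test of it. The members were abundant in PBS, and abundant features were more often lower. Among the 1258 features with an RPKM of at least 40 in PBS, which include all 10 members, 14.0% were at least 2-fold lower, 2.23% at least 4-fold and 0.636% at least 8-fold. The median log2 ratio of these 1258 features was -0.11.

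**Figure D1:**
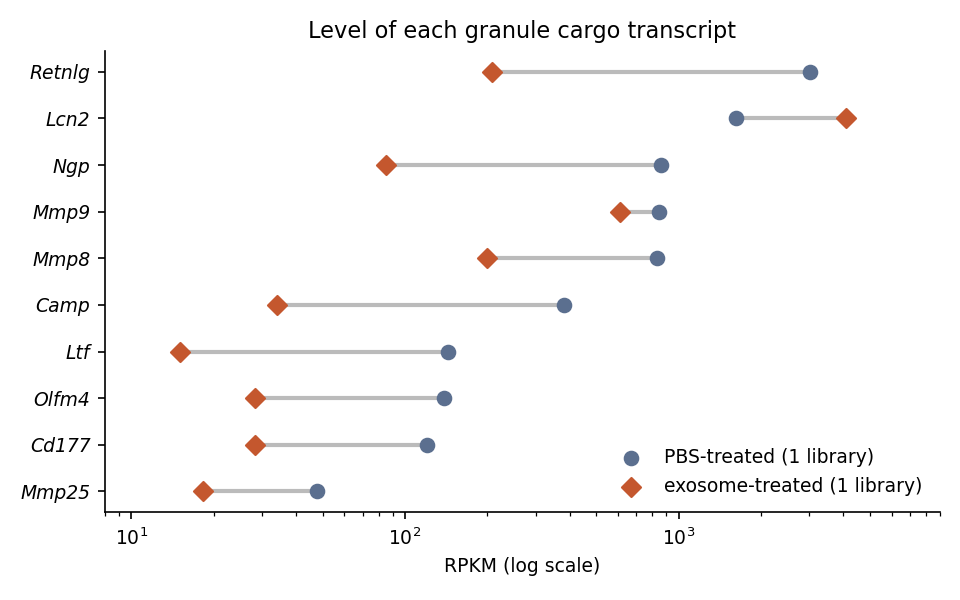
RPKM of each granule cargo transcript on a log scale in the PBS-treated library (circles) and the exosome-treated library (diamonds), 1 library each, ordered by the PBS level. Lcn2 is the only transcript whose exosome value lies to the right of its PBS value, and Mmp9 has the shortest step.

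**Figure D2:**
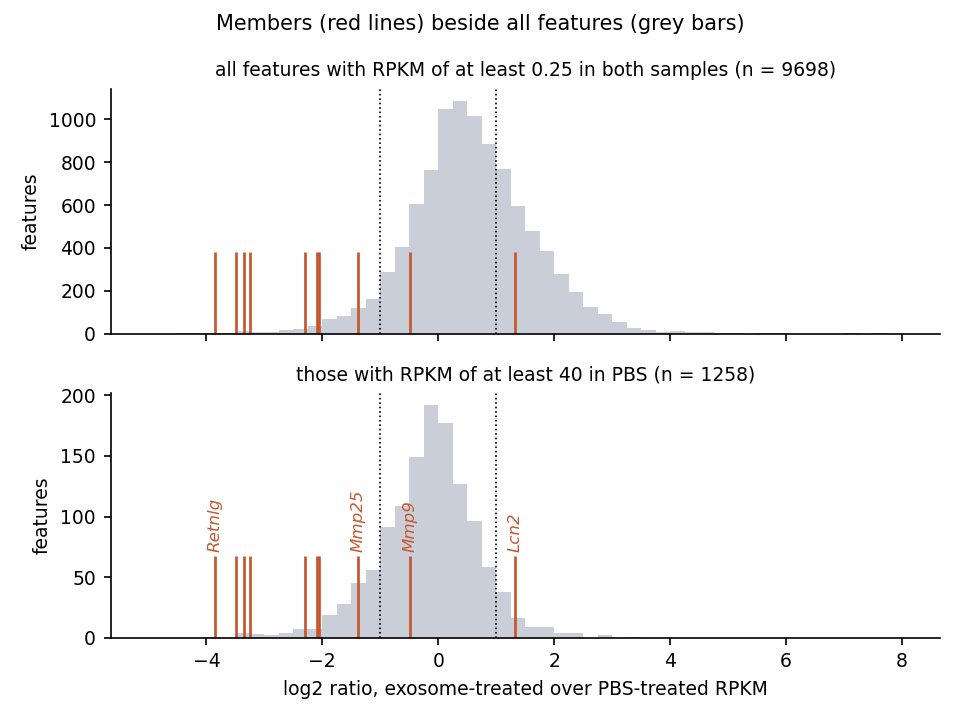
Number of features by log2 ratio of exosome-treated over PBS-treated RPKM (grey bars), for all 9698 features kept and for the 1258 of them with an RPKM of at least 40 in PBS. Red lines mark the 10 members and dotted lines the 2-fold limits, with 8 members left of the lower limit in both panels.

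The largest decreases were those of Retnlg, Camp, Ngp and Ltf. Retnlg was the most abundant member in PBS-treated neutrophils and the 8th most abundant of all features, at 3021 RPKM. With exosomes it stood at 208.33 RPKM, rank 205, which is 14.5-fold lower (log2 ratio -3.86, 95% counting interval -3.89 to -3.83). The counting interval is an exact Clopper-Pearson interval of estimated reads and covers counting error only, not the spread between cultures. Only 0.0412% of all features kept had a lower ratio than Retnlg.

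Camp, which encodes the precursor of the antimicrobial peptide CRAMP, had 381.38 RPKM in PBS and 33.92 with exosomes. It was 11.2-fold lower (log2 ratio -3.49, counting interval -3.56 to -3.42). Ngp, whose protein is related to the cathelicidins, had 862.34 and 85.01 RPKM, which is 10.1-fold lower (log2 ratio -3.34, counting interval -3.38 to -3.31). Ltf, which encodes the iron-binding protein lactoferrin, had 143.98 and 15.09 RPKM and was 9.54-fold lower (log2 ratio -3.25, counting interval -3.31 to -3.20). The levels of these 3 genes kept nearly the same proportions to each other. The level of Ngp was 5.99 times that of Ltf in PBS and 5.63 times with exosomes, and the level of Camp was 2.65 and 2.25 times that of Ltf.

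The genes that lie between Camp and Ltf had other ratios. The interval spans 1.20 Mb, and of its 26 other protein-coding genes listed in the tables, 10 reached 0.25 RPKM in each of the samples. None of these 10 was called lower and 3 were called higher (Cdc25a, Dhx30 and Smarcc1), with a median log2 ratio of -0.08 and a range of -0.96 to 1.75. These counts are near the shares of all features kept, 5.62% lower and 31.5% higher. All 10 were less abundant than Ltf in PBS. The neighbours of Ngp, Ptpn23 and Klhl18, had 17.0 and 7.06 RPKM in PBS and 16.37 and 6.54 with exosomes, against 862.34 and 85.01 for Ngp between them. Nbeal2, which is known for its part in granule formation, had 102.02 and 54.5 RPKM, a log2 ratio of -0.90. Ccdc12 had 72.61 and 51.07 RPKM, a log2 ratio of -0.51. Only these 2 of the 10 reached 50 RPKM in PBS.

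**Figure D3:**
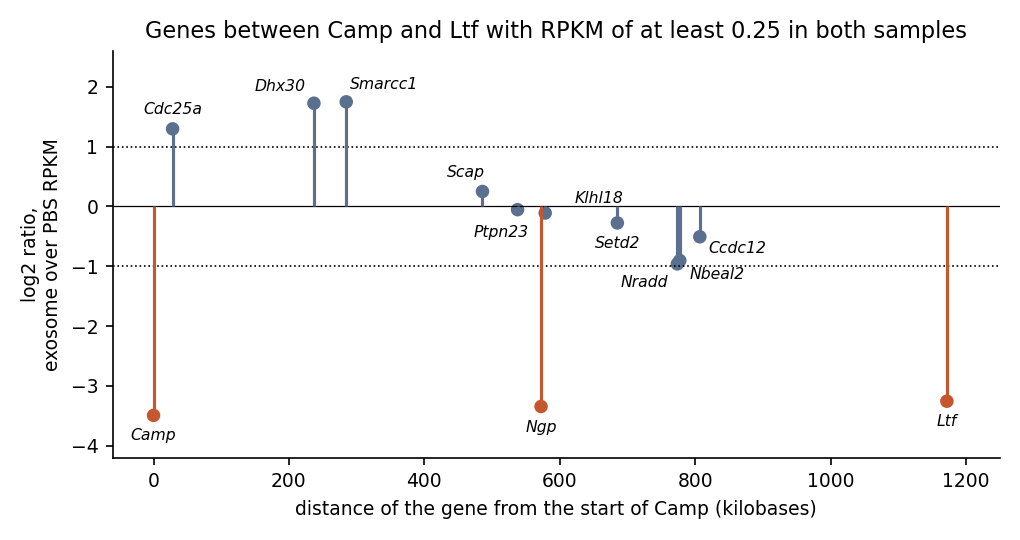
Log2 ratio of exosome-treated over PBS-treated RPKM for genes that reached 0.25 RPKM in each library, by their distance in kilobases from the start of Camp. Camp, Ngp and Ltf (red) lie between -3.49 and -3.25, and the 10 other genes (blue) between -0.96 and 1.75, with dotted lines at the 2-fold limits.

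Olfm4, Cd177 and Mmp8 formed another step, between 4- and 5-fold. Olfm4, a glycoprotein that only some neutrophils carry, had 138.43 RPKM in PBS and 28.24 with exosomes (log2 ratio -2.29, counting interval -2.33 to -2.25). Cd177, a surface protein anchored by a lipid, had 120.46 and 28.24 RPKM (log2 ratio -2.09, counting interval -2.13 to -2.05). The exosome value of Cd177 was listed as the same number as that of Olfm4. Mmp8, which cleaves fibrillar collagen, had 832.76 and 199.67 RPKM (log2 ratio -2.06, counting interval -2.08 to -2.04). The counting intervals of Cd177 and Mmp8 overlap, and that of Olfm4 lies below both. They leave out the spread between cultures, so they do not show whether these ratios differ.

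Of the tertiary granule proteinases, Mmp25 was called lower and Mmp9 was not. Mmp25 was the least abundant member in PBS, at 47.67 RPKM, and had 18.27 RPKM with exosomes, which is 2.61-fold lower (log2 ratio -1.38, counting interval -1.43 to -1.34). Mmp9, which degrades gelatin and basement membrane collagen, had 849.26 and 607.79 RPKM, a ratio of 0.716 (log2 ratio -0.48, counting interval -0.49 to -0.47). Centred on neutrophil identity genes, described further on, Mmp25 was no longer called (-0.03) and Mmp9 turned to 0.87. In PBS the level of Mmp9 was 1.02 times that of Mmp8, and with exosomes it was 3.04 times that of Mmp8. Of the 17 other matrix metalloproteinase genes in the list, 2 reached 0.25 RPKM in each sample. Both were called higher, as were 31.5% of all features kept. Mmp14, a membrane-type collagenase, had 0.59 and 5.04 RPKM, and the gelatinase Mmp2 had 1.02 and 2.95. All 17 remained below the level of Mmp25 in both samples.

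Lcn2 went the other way. Its protein, lipocalin 2, binds the siderophores with which bacteria take up iron, and inflammatory signals also induce the gene outside granule formation. Lcn2 had 1625.81 RPKM in PBS, rank 12 of all features, and 4080.94 RPKM with exosomes, rank 7. The ratio was 2.51 (log2 ratio 1.33, counting interval 1.32 to 1.34), and 78.6% of the features kept had a lower one. Within the cargo, Lcn2 stood at 0.538 times the level of Retnlg in PBS and at 19.6 times that level with exosomes. Relative to Ltf, another iron-sequestering protein, it stood at 11.3 times the level in PBS and 270.4 times with exosomes. The rise of Lcn2 was smaller than 2-fold once the samples were centred on the median of all features, at a log2 ratio of 0.80, and Mmp9 then passed the lower limit at -1.01.

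The make-up of the cargo changed with these shifts. The 10 transcripts summed to 8023 RPKM in PBS, which is 2.24% of the summed RPKM of the sample, and to 5306 RPKM or 1.53% with exosomes. Retnlg made up 37.7% of the cargo in PBS, followed by Lcn2 with 20.3%, Ngp with 10.7%, Mmp9 with 10.6% and Mmp8 with 10.4%. With exosomes Lcn2 alone made up 76.9% and Mmp9 11.5%, while Retnlg and Mmp8 held 3.93% and 3.76%. Without Lcn2, a choice made after seeing the data, the other 9 members summed to 6397 RPKM in PBS and 1225 with exosomes, a 5.22-fold difference, and their share of the sample was 1.78% and 0.353%. Without Retnlg instead, the share was 1.40% in PBS and 1.47% with exosomes, which turns the direction of the difference. In PBS 5 members ranked among the 50 most abundant features, and 2 (Lcn2 and Mmp9) did with exosomes.

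**Figure D4:**
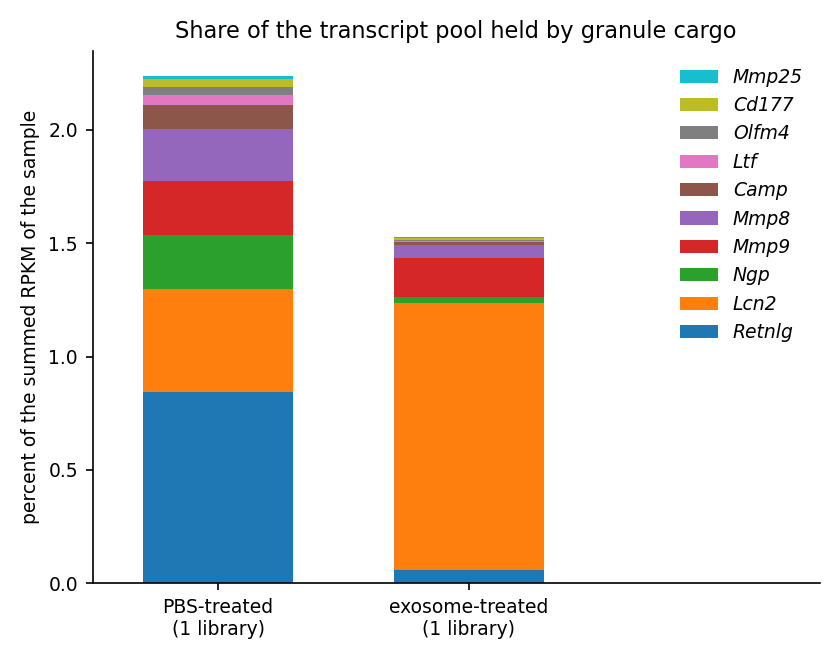
Percent of the summed RPKM of each library held by the 10 granule cargo transcripts, stacked by gene from the most abundant in PBS at the base. The PBS column reaches 2.24% and the exosome column 1.53%, of which Lcn2 is the largest part.

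Other granule genes were compared from lists that were chosen with earlier results of these data known. Of 14 other secondary and tertiary cargo genes kept, 4 were called higher and 2 lower, with a median log2 ratio of 0.16. Over all features kept, 31.5% were called higher and 5.62% lower. The counts called higher here and among the granule membrane genes are near that share. Lyz2, the lysozyme found in all granule types, had 6092 RPKM in PBS and 14430 with exosomes, and Chi3l3, which encodes the chitinase-like protein Ym1, had 26.87 and 3.82. Orm1, an acute phase protein also stored in granules, had 0.93 and 4.67 RPKM. Of 19 genes of granule membrane proteins, 5 were called higher and 4 lower (median 0.33). Among them Cybb, the large subunit of the NADPH oxidase, had 69.67 and 295.08 RPKM, and Mgam, a glucosidase of tertiary granule membranes, had 31.2 and 7.15. Stom, which encodes the membrane protein stomatin, had 3.37 and 15.32 RPKM.

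Myeloperoxidase and serine proteases of azurophil granules, which are made before the secondary granules, were low in both samples. Mpo had 5.48 RPKM in PBS and 8.42 with exosomes, Elane 2.64 and 3.31, Prtn3 1.14 and 2.90, and Ctsg 1.10 and 2.17, all below the level of Mmp25 in both samples. Srgn, which encodes the proteoglycan serglycin that packs granule proteins, was abundant at 1163.71 and 659.25 RPKM, and the granule membrane gene Cd63 had 147.41 and 58.37. Of 9 azurophil genes kept, 2 were called higher and 2 lower (median 0.33). For this list and those that follow, the shares of all features kept remain 31.5% higher and 5.62% lower. Ctsc, which activates the serine proteases of these granules, had 3.94 and 28.58 RPKM. Of 18 genes for the traffic and fusion of granules, 1 was called higher and 3 lower (median -0.09), and none of the 18 differed by 4-fold. Of 11 transcription factors of granulocyte differentiation, 0 were called higher and 1 was called lower, Klf5, a zinc finger factor named after its value was seen (5.53 and 2.32 RPKM). Cebpe, which encodes C/EBP epsilon, had 10.86 and 5.44 RPKM, a ratio of 0.501 that just missed the limit of 0.5. Cebpa had 44.12 and 47.8 RPKM, Cebpb 227.42 and 418.72, Cebpd 124.47 and 103.31, and Gfi1 0.50 and 0.33. Spi1, which encodes PU.1 and was listed under the older symbol Sfpi1, had 310.26 and 341.01 RPKM.

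**Figure D5:**
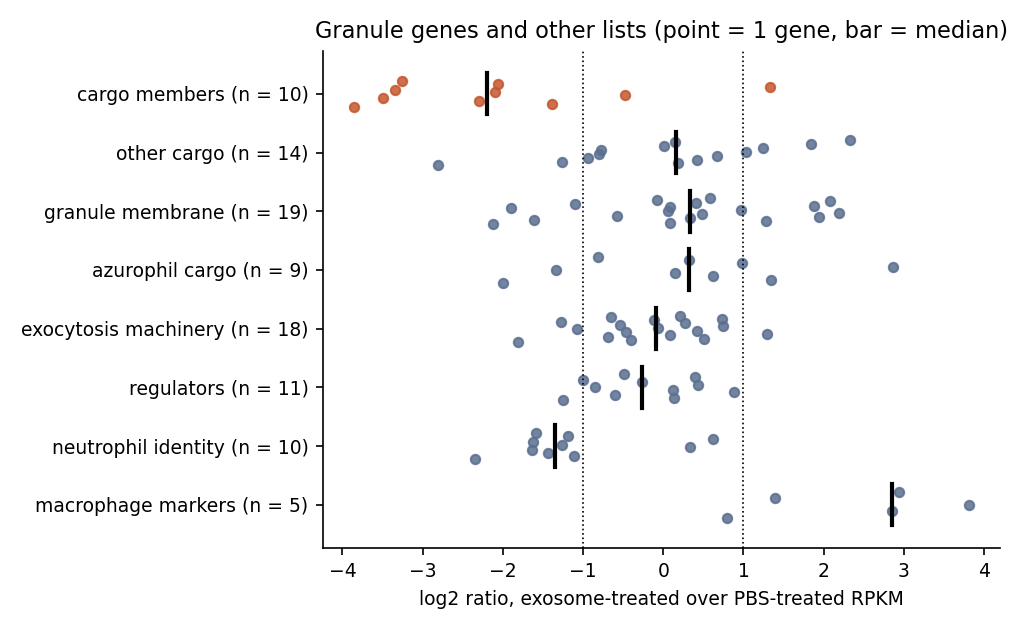
Log2 ratio of exosome-treated over PBS-treated RPKM for the genes kept in each list, with 1 point per gene and a bar at the median. The median of the cargo members is -2.19, those of the other granule lists lie between -0.09 and 0.33, neutrophil identity genes are at -1.35 and macrophage markers at 2.86.

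Most genes that define neutrophils were also called lower. S100a8 had 32823 RPKM in PBS and 14382 with exosomes, S100a9 had 43059 and 13834, and Ly6g, the gene of the sorting marker, had 286.96 and 56.19. Of 10 neutrophil identity genes, 8 were called lower and 0 higher, with a median log2 ratio of -1.35, and their summed level was 80118 RPKM in PBS and 30156 with exosomes. The share called lower was 5.62% of all features kept and 14.0% of those with an RPKM of at least 40 in PBS. Itgam (312.74 and 393.4 RPKM) and Mpo stayed within 2-fold. Of the 10 macrophage markers listed, 5 reached 0.25 RPKM in each sample, and 4 of these 5 were called higher while Cd68 (83.91 and 145.79 RPKM) stayed within 2-fold. A higher value with exosomes was common, as 31.5% of all features kept were called higher and their median log2 ratio was 0.53. All 10 macrophage markers listed had a higher value with exosomes, ranging from 0.04 to 83.91 RPKM in PBS and from 0.38 to 152.64 with exosomes. Their summed level was 164.1 and 460.7 RPKM, and none of them was listed at 0. The defining markers C1qa, C1qb and C1qc had 0.18, 0.30 and 0.27 RPKM in PBS and 1.42, 2.30 and 3.79 with exosomes, while Emr1, which encodes F4/80, had 20.91 and 151.51. The Fc receptor gene Fcgr1 had 0.20 and 1.19 RPKM. C1qa and Fcgr1 were below the limit of 0.25 in PBS and were not called. All 5 B cell markers were listed in both samples, with a summed level of 108.1 and 66.9 RPKM. Colon carcinoma markers stayed below 1 RPKM in both samples. The part of these other cells in the cargo values was not tested, and in such bulk samples fewer cells of a type and less RNA per cell cannot be told apart. Centred on the 10 neutrophil identity genes, 4 of the 10 members (Retnlg, Camp, Ngp and Ltf) were still called lower, with log2 ratios from -2.51 to -1.90, and the median of all members was -0.84. On that scale Lcn2 stood at 2.68.

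A total of 300 other features had log2 ratios between those of Retnlg and Mmp25, the lowest and the highest of the members called lower. Among the most abundant of them in PBS were S100a9 and S100a11, which encode calcium-binding proteins, the chemokine gene Ccl6, and Lsp1, whose protein binds actin. Of these named features Ccl6 had the lowest ratio, with 921.59 RPKM in PBS and 117.29 with exosomes (log2 ratio -2.97). S100a11 and Lsp1 had log2 ratios of -1.61 and -1.39. This likeness rests on 1 ratio between 2 libraries.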

How the data were processed

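Total RNA was extracted with TRIzol, TruSeq mRNA libraries were prepared and reads were sequenced on a HiSeq system. The authors trimmed reads at a Phred score of 20, used CLC Genomics Workbench 8.0 for the analysis, and deposited each feature's RPKM (reads scaled by exon length and mapped reads) for each sample, on genome build mm10 per the labels. The annotation and the handling of reads that match several genes are not given in the sources used here. Values above 0.01 were rounded to 2 decimals, and 25 features carry a date number in place of a name. No count model was used.

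The depth was estimated from RPKM values below 0.01 that stand for 1 read, with the longest GENCODE M21 transcript (GRCm38) of each gene. It was 65.97 M mapped reads for PBS-treated and 79.13 M for exosome-treated neutrophils, where M stands for mega. Read numbers estimated from it, 2035 to 443706 per member and sample, were used for 95% Clopper-Pearson intervals (scipy 1.17.1) and cover counting error only. Log2 ratios carry no pseudocount. The code was also run on simulated reads with planted 4-fold changes. These reads held counting error only, so the run does not show how reliable the calls are between cultures.

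Members and lists were chosen with earlier results of these data known. Genes named are the members, listed genes at 4-fold or more with an RPKM of at least 1 in one sample, small lists, fixed regulators and markers, and the 5 most abundant features in the members' range. Some genes that this rule names are not reported here. Promoter windows of Mmp25, Olfm4 and Cd177 were searched and are not printed, and the genes between Camp and Ltf were looked up after the values were seen. Of the symbols in the lists, 7 were matched through older names in RefSeq. Alternatives were 3 centrings, 2 rescalings, 2 filters, a pseudocount of 1 and a 4-fold limit.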

Additional observations from a re-analysis of the deposited data

How the results depend on the processing

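With 1 library per group, no replicate could be left out. No paired analysis was possible because each group holds 1 sample and the result comes from no test. Centring and rescaling shift all members by the same amount, and the filter at 1 RPKM leaves their values unchanged. The recomputed values are therefore not separate checks. Of 90 recomputed member values, 89 kept their direction and 82 their side of the 2-fold limit. The exception in direction was Mmp9 at 0.87 when centred on neutrophil identity genes, a setting chosen after seeing the data. Under it 4 members were called lower and the member median was -0.84, while Olfm4 (-0.94), Mmp8 (-0.71), Cd177 (-0.74) and Mmp25 (-0.03) no longer passed. Under the alternatives fixed at the start, 7 to 9 members were called lower. Median centring removed a log2 shift of 0.53 and gave a member median of -2.72, with 1634 of all features higher and 1282 lower. Removing a trimmed mean of log ratios (0.54) gave -2.73, 1596 and 1321. Lcn2 was then below the higher limit (0.80 and 0.79) and Mmp9 past the lower one (-1.01 and -1.02). Leaving S100a8, S100a9 and the members out of the sample sums gave a member median of -2.38. Features called higher numbered 1958 where neither sample was below 1 RPKM and 1976 with a pseudocount of 1. At a ratio of 4 there were 826 higher and 111 lower. Among features at 40 RPKM or more in PBS, 83 were higher and 176 lower, also chosen after seeing the data. The share of the sample held by the members was 2.84% in PBS and 1.66% with exosomes without S100a8 and S100a9 in the sum, 1.40% and 1.47% without Retnlg, which turns the direction, and, added after seeing the data, 1.78% and 0.353% without Lcn2.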

Other observations

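Genes for receptors and inhibitors of granule cargo were also listed. Of these, Fpr2, Slpi and Timp2 also belong to the granule lists described before. Of 6 receptors and inhibitors of cargo proteins kept, 3 were at least 2-fold higher with exosomes and 1 was lower, where 31.5% of all features kept were higher and 5.62% lower. Fpr2, a receptor for cathelicidin peptides, had 429.08 RPKM in PBS and 1581.86 with exosomes, while Camp, the gene of its peptide ligand, was lower. Pecam1, the binding partner of CD177, had 2.43 and 10.38 RPKM, and Lrp1, which takes up proteinases bound to inhibitors, had 0.26 and 1.66. Reck, an inhibitor of Mmp9, had 1.62 and 0.27 RPKM. The inhibitor Timp1 was listed at 0.03 and 0.06 RPKM, and Slpi, which inhibits serine proteases, had 397.62 and 449.84.

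Retnlg was the only abundant gene of the resistin family in these libraries. Retn had 3.46 RPKM in PBS and 1.50 with exosomes, Retnlb was listed at 0.13 and 0, and Retnla at 0 in both. The stefin A genes, which encode inhibitors of cysteine proteases and are also carried by chromosome 16, were lower in 5 of 6 cases. Of all features kept, 5.62% were called lower, as were 14.0% of those with an RPKM of at least 40 in PBS. Stfa2l1 had 920.53 and 440.1 RPKM, BC100530 had 494.21 and 141.75, Stfa2 had 130.56 and 51.65, BC117090 had 43.24 and 9.53, and Stfa1 had 3.44 and 1.15. Stfa3 was higher, with 30.83 and 73.82 RPKM. These genes are similar in sequence, and how reads common to several of them were assigned is not known here, so single values are uncertain.

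Markers of other cells were mostly low. The B cell markers Cd79a, Cd79b, Ms4a1 and Pax5 had 38.25, 33.59, 15.64 and 3.98 RPKM in PBS and 24.44, 19.42, 10.02 and 2.82 with exosomes. Of the T and NK cell markers, Cd3d had 56.44 and 7.02 RPKM, while Cd3e was listed at 0.06 and 0.04. Of the eosinophil markers, Ear2 had 6.41 and 0.44 RPKM, Prg2 5.32 and 2.93, Siglec5 3.57 and 1.92, and Il5ra and Epx were below 0.25 in both samples. The basophil and mast cell markers Mcpt8 (1.01 and 0.86) and Cpa3 (0.52 and 0.43) were detected at low levels, and Gata2 (0.28 and 0.22), Ms4a2 (0.14 and 0.25) and Fcer1a (0.12 and 0.10) were lower still. Among dendritic cell markers Itgax, which neutrophils also express, had 8.98 and 4.19 RPKM, Cd209a had 0.64 and 0.10, Siglech had 0.43 and 0.17, and Flt3, Zbtb46 and Xcr1 were below 0.25 in both. The globin gene Hba-a1 had 1.19 and 0.02 RPKM. The summed level of the 7 colon carcinoma markers was 1.20 RPKM in PBS and 1.05 with exosomes.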
